A study of Mus musculus with 24 samples.

Results

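The mouse miRNA 3p strands numbered miR-6896-3p to miR-7094-3p were examined in serum exosomes of mice given toosendanin (TSN), a plant triterpenoid with known liver toxicity, or vehicle. They were taken by name, as every non-control entry of the array whose name is a 3p strand with a number from that of miR-6896-3p to that of miR-7094-3p, and numbered 195 of the 1881 miRNAs measured, covered by 405 of 4415 probes. The animals were male BALB/c mice. TSN was given at 80 mg/kg, and serum was drawn a day after the last dose. The 24 arrays, from a single-colour mouse miRNA platform, form 6 groups of 4: vehicle control and TSN at day 3, day 9 and day 21. The labels state neither the age of the mice, nor the vehicle, nor whether a sample is 1 animal or a pool, and the p-values therefore cover only the differences among samples, some of which may be technical.

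MicroRNAs of this number range were largely annotated from sequencing of small RNAs, and most are mirtrons or mirtron-like. A mirtron is a short intron that folds into a hairpin after splicing and so enters the miRNA pathway without the nuclear Drosha cut. The intron's end is then the hairpin's end, so the 3p strand carries the pyrimidine tract and the AG of the splice acceptor site, and the 5p strand is often rich in purines. An exosome is a small vesicle released by cells, and the miRNAs inside it can come from blood cells, liver or other tissues.

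The name-based set was checked against the mature sequences of RefSeq (build GRCm38.p6), where 171 of the 195 were found. Of these, 78.4% (134 of 171) ended in AG, against 11.2% of 536 other 3p strands and 6.98% of 172 5p strands of the same number range. C and U made up a median of 71.4% of the bases, against 54.5% in the other 3p strands and 31.8% in the 5p strands of the range. Of 175 hairpins with these numbers, 164 (93.7%) ended in AG, against 8.88% of 822 other hairpins, and 124 of 166 3p strands (74.7%) ended at the hairpin's last base. Only 26 of the 175 (14.9%) began with GU, the bases of a splice donor site, against 6.2% of the 822 others. A protein-coding gene spanned 165 of 166 hairpins, against 57.5% of the others, with genes on either strand counted. The sequences thus carry the acceptor-end features of the label for most members, though not for all, and most of the hairpins do not begin with GU.

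**Figure D1:**
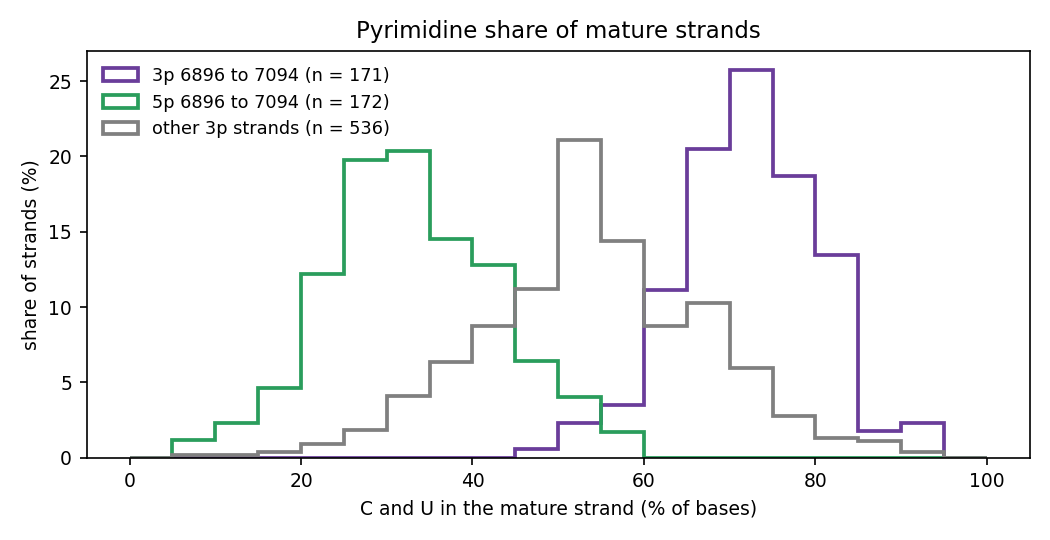
Share of C and U bases (x axis, %) in mature strands, as a share of strands in bins 5 points wide (y axis, %). The 3p strands of the range have a median of 71.4%, the 5p strands of the same range 31.8% and other 3p strands 54.5%.

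Only 10 of the 195 strands were well above background on any array. Their mature sequences are given because the detection counts of the 3p strands below rest on them, with the seed (bases 2 to 8, the stretch that pairs with a target mRNA) in capitals, 5′ to 3′.
miR-7080-3p: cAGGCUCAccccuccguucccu
miR-7022-3p: aCAAGCCUgaccucugccccca
miR-7085-3p: uAGCUGGCcucuccccaccuuc
miR-7055-3p: uUGCUACUuugauaccccaccag
miR-6943-3p: cUGCUUCCauaccccuacccag
miR-6934-3p: aCCUCUGCuccugccccaccag
miR-6968-3p: aCAAGCGCugucuccccuccag
miR-7046-3p: uGAACCACccaucccccuacag
miR-6976-3p: aUCUCCCUcccaacuccccag
miR-7033-3p: uGCCUCCAuucucuugggcag
No seed is shared among these 10, nor with any other mature miRNA of the table. Among all 171, 165 different seeds were found and 5 were shared, the widest being CACCCUG in miR-7018-3p, miR-7023-3p and miR-7068-3p, none of them above background on any array.

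Of the 10, 7 end in AG at the last base of the hairpin. The exceptions are miR-7080-3p, with 4 hairpin bases after its end, miR-7085-3p with 2 and miR-7022-3p with 1. miR-7080-3p lies at chr8:123130147-123130168 on the plus strand, within the span of Cpne7, a calcium-dependent membrane-binding copine. In its hairpin both mature strands are in capitals, and the 4 bases that follow the 3p strand hold the AG:
Mir7080: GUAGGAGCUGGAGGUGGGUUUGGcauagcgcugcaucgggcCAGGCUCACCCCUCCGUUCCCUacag
miR-6976-3p lies at chr17:46553827-46553847 on the minus strand, within the span of Srf, the serum response factor, and its 3p strand closes the hairpin:
Mir6976: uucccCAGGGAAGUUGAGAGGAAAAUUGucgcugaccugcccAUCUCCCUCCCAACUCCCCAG
The hairpin of miR-7022-3p lies in the span of Fbxo6, an F-box subunit of ubiquitin ligases that binds glycoproteins, and that of miR-7085-3p in Slc37a4, the glucose-6-phosphate transporter of the endoplasmic reticulum. The others lie in Slc17a7 (miR-7055-3p, a vesicular glutamate transporter), Grk6 (miR-6943-3p, a G protein-coupled receptor kinase), Tbc1d16 (miR-6934-3p), Phf1 (miR-6968-3p, a Polycomb-associated protein), Rabac1 (miR-7046-3p) and Pom121 (miR-7033-3p, a nuclear pore protein). No genome sequence was used here, so whether each hairpin fills an intron was not examined. Whether gene and hairpin lie on the same strand was not examined either.

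Array brightness differed between the arms and bears on every value that follows. The 75th percentile of signal, over the 261 probes that every one of the 24 arrays measured well above background, lay between 73.6 and 609 intensity units in the controls and between 737 and 1750 under TSN. The difference in mean log2 values corresponds to 7.23-fold at day 3, 11.8-fold at day 9 and 5.87-fold at day 21. The labelling spike-in probes were 3.38-fold, 3.52-fold and 3.32-fold brighter. Controls of day 3 and day 9 shared slide 1, controls of day 21 lay on slide 2, TSN day 3 on slide 3 and TSN day 9 and day 21 on slide 4. Since no slide carried samples of both arms, slide and arm cannot be told apart. Red cell miRNAs (4 of 4, among them miR-451a) were above background on all 24 arrays, with a log2 of their summed scaled level of 5.05 to 6.56 in controls and 4.82 to 6.56 under TSN. The liver miRNA miR-122-5p was above background on 9 control and 12 TSN arrays, miR-192-5p on all 24, and miR-148a-3p on 7 and 12. Of the striated muscle miRNAs, miR-1a-3p was above background on 3 control and 12 TSN arrays, miR-133a-3p on 0 and 11, and miR-206-3p on none. Of the platelet and leukocyte miRNAs, miR-223-3p and miR-142a-3p were above background on all 24, miR-150-5p on 6 control and 12 TSN arrays and miR-191-5p on 0 and 11. The part of RNA from these sources in the results was not tested.

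Detection was rare in the 3p strands. A strand counts as above background on an array where the scanner software marked more than a 0.5 share of the spots of any of its probes. By this rule 185 of 195 (94.9%) were never above background, 10 (5.13%) were on at least 1 array, 6 (3.08%) were on every array of 1 or more groups, and miR-7080-3p alone was on all 24. Of the 10, 8 were above background on a control array and 4 on a TSN array. Among the 196 5p strands of the same range 86 (43.9%) were on at least 1 array and 27 on all 24. Among the 590 other 3p strands 155 (26.3%) were, and among all 1881 miRNAs 548 (29.1%).

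On control arrays 5 to 7 of the 3p strands were above background at day 3 (mean 5.75 ± 0.957, SD, n = 4), 5 to 7 at day 9 (5.75 ± 0.957) and 2 to 3 at day 21 (2.50 ± 0.577). On TSN arrays the counts were 1 to 3 (2.25 ± 0.957), 2 to 3 (2.50 ± 0.577) and 2 to 4 (2.75 ± 0.957). The arms did not overlap at day 3 or day 9 and overlapped at day 21. The TSN minus control difference was -3.5 strands at day 3 and -3.25 at day 9 (exact two-sided permutation p = 0.0286 each, the smallest that 70 allocations allow; adjusted over 3 days 0.0429) and 0.25 at day 21 (exact permutation p = 1). The higher counts are those of slide 1, and the controls on slide 2 had counts like those of TSN. With the stricter rule that all spots be above background, the differences at day 3 and day 9 were -0.75 each (exact permutation p = 0.371 and 0.429).

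The 5p strands of the same number range were above background more often under TSN at each day. They numbered 37.5 ± 6.14, 33.8 ± 8.5 and 42.2 ± 12.4 above background per control array at day 3, day 9 and day 21, and 74.8 ± 5.38, 71.2 ± 1.26 and 80.8 ± 4.72 per TSN array (SD, n = 4). The difference between the 5p and the 3p count on the same array was larger under TSN by 40.8 strands at day 3, 40.8 at day 9 and 38.2 at day 21 (exact permutation p = 0.0286 each, adjusted 0.0286). The controls ranged from 184 to 351 miRNAs above background of any kind and the TSN arrays from 379 to 471.

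**Figure D2:**
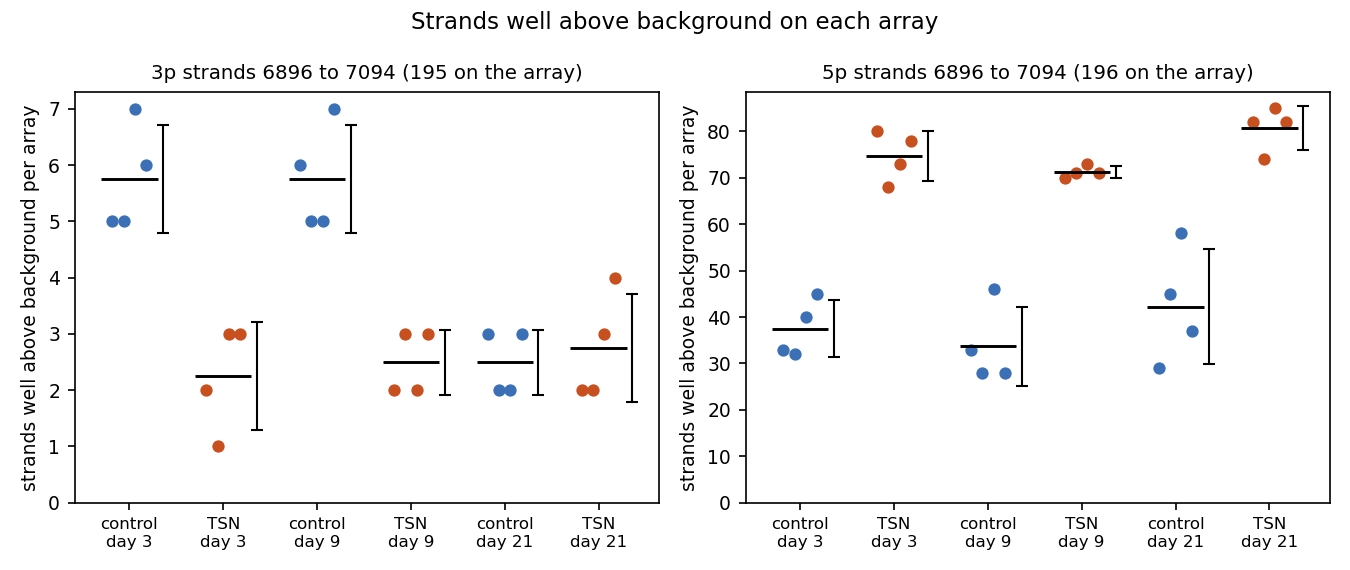
Number of strands well above background on each array (y axis) by group (x axis), for 3p (left) and 5p (right) strands of the range. Points are arrays, horizontal lines are means and bars at the side are SD (n = 4). Controls at day 3 and day 9 hold 5 to 7 of the 3p strands and every other group 1 to 4, while the 5p counts are higher under TSN at each day.

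Taking both arms of a hairpin together, 194 numbers had both strands on the array. Both were above background on at least 1 array for 5 of them, the 5p strand alone for 80, the 3p strand alone for 5 and neither for 104. The 5 with the 3p strand alone are miR-6943-3p, miR-6968-3p, miR-6976-3p, miR-7055-3p and miR-7080-3p, and their 5p strands were on 0 of 24 arrays. In contrast, miR-6934-5p was above background on all 12 TSN arrays and on 0 control arrays, with unscaled signals of 21.0 to 126 against -0.889 to 4.4. Its partner miR-6934-3p was above background on 3 control arrays and 0 TSN arrays. miR-7033-5p was above background on 21 arrays, miR-7022-5p and miR-7046-5p on 15 each, and miR-7085-5p on 4, all of them TSN arrays.

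miR-7080-3p was the one strand measured above background on every array. Its unscaled intensity was 23.1, 25.0, 24.1 and 23.6 in the controls of day 3, 24, 25.3, 24.9 and 26.1 in those of day 9, and 22.0, 22.1, 19.5 and 19.7 in those of day 21. Under TSN it was 13.5, 15.8, 18.2 and 15.9 at day 3, 15.9, 20.2, 17.1 and 16.3 at day 9, and 19.1, 18.3, 17.8 and 16.3 at day 21. Every TSN array lay below every control array of its day, though the TSN arrays were brighter as a whole. On the unscaled log2 scale the group difference was -0.60, -0.54 and -0.22 at day 3, day 9 and day 21, against a difference in array brightness of 2.85, 3.56 and 2.55.

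miR-7022-3p was well above background on all 12 control arrays and on 6 TSN arrays. Its unscaled intensity ran from 9.78 to 15.4 in controls (median 12.4) and from 9.35 to 12.8 under TSN (median 10.3), and the arms overlapped in these ranges. The unscaled log2 differences were -0.28, -0.40 and 0.01 by day.

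miR-7085-3p, miR-7055-3p and miR-6943-3p were above background on control arrays only, on 10, 8 and 7 of 12. miR-7085-3p read 7.65 to 14.9 in controls (median 11) and 4.80 to 7.63 under TSN (median 5.69). miR-7055-3p read 6.20 to 13.5 (median 8.40) and 3.62 to 6.19 (median 5.12), and miR-6943-3p 6.53 to 11.5 (median 8.59) and 4.13 to 6.38 (median 4.81). In none of these strands did a TSN array reach the lowest control array. At day 21 neither miR-7055-3p nor miR-6943-3p was above background on any array of either arm.

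The remaining strands were detected less often. miR-6934-3p and miR-6968-3p were above background on 3 control arrays each and on no TSN array, and miR-7046-3p on 1 control array. miR-6934-3p read 6.18 to 10.1 in controls and 4.30 to 7.32 under TSN. miR-6968-3p read 5.03 to 9.21 and 5.62 to 10.2, so its TSN signals were not the lower ones although none was marked above background. miR-7033-3p was above background on 1 TSN array, of day 21. It read -0.998 to 2.00 in controls and 1.95 to 12.5 under TSN, and at each day all 4 TSN arrays lay above all 4 control arrays.

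miR-6976-3p was the only member detected on most TSN arrays and on no control array. Its unscaled intensity was 5.35 ± 1.26, 5.32 ± 0.765 and 4.83 ± 0.983 in the controls of day 3, day 9 and day 21 (SD, n = 4), at background on all 12. Under TSN it was 12.9, 10.4, 14.2 and 12.6 at day 3, 33.4, 30.4, 25.7 and 23.0 at day 9, and 40.4, 35.8, 37.5 and 35.4 at day 21, above background on 11 of 12 arrays. The TSN values did not overlap the control values at any day, and those of day 3 lay below those of both later days. TSN day 3 lay on slide 3 and both later days on slide 4, so slide and day cannot be told apart in that step. The group means under TSN were 12.5, 28.1 and 37.3, which is 7.17, 22.8 and 32.4 intensity units above the controls of the day. No fold is given, since the control readings are at background.

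The probes of a strand did not always agree. The array carries 2 probes for 180 of the 3p strands and 3 for the other 15. In each strand above background they end at the same base of the miRNA and differ in length. Those of miR-6976-3p and miR-7080-3p are printed as on the array, 5′ to 3′, with runs of 4 or more G in capitals:
miR-6976-3p, 13 bases: ctGGGGagttggg
miR-6976-3p, 14 bases: ctGGGGagttggga
miR-7080-3p, 13 bases: agggaacggaggg
miR-7080-3p, 14 bases: agggaacggaGGGG
The 13-base probe of miR-6976-3p had a mean of 5.17 in controls and 26.0 under TSN and was above background on 11 arrays. The 14-base probe, which pairs with 1 further base of the same strand, had means of 3.92 and 3.22 and was above background on 0 arrays. The rise of miR-6976-3p was thus seen by the shorter probe only. For miR-7080-3p the 14-base probe was above background on 24 arrays (means 23.3 and 17.0) and the 13-base probe on 10 (10.8 and 3.61), and both were lower under TSN. The 2 probes of miR-7033-3p agreed, with means of 0.215 and 0.0399 in controls and 6.17 and 6.54 under TSN. Among the mature sequences of the table, the stretch each of these probes pairs with was found in its own miRNA only.

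**Figure D3:**
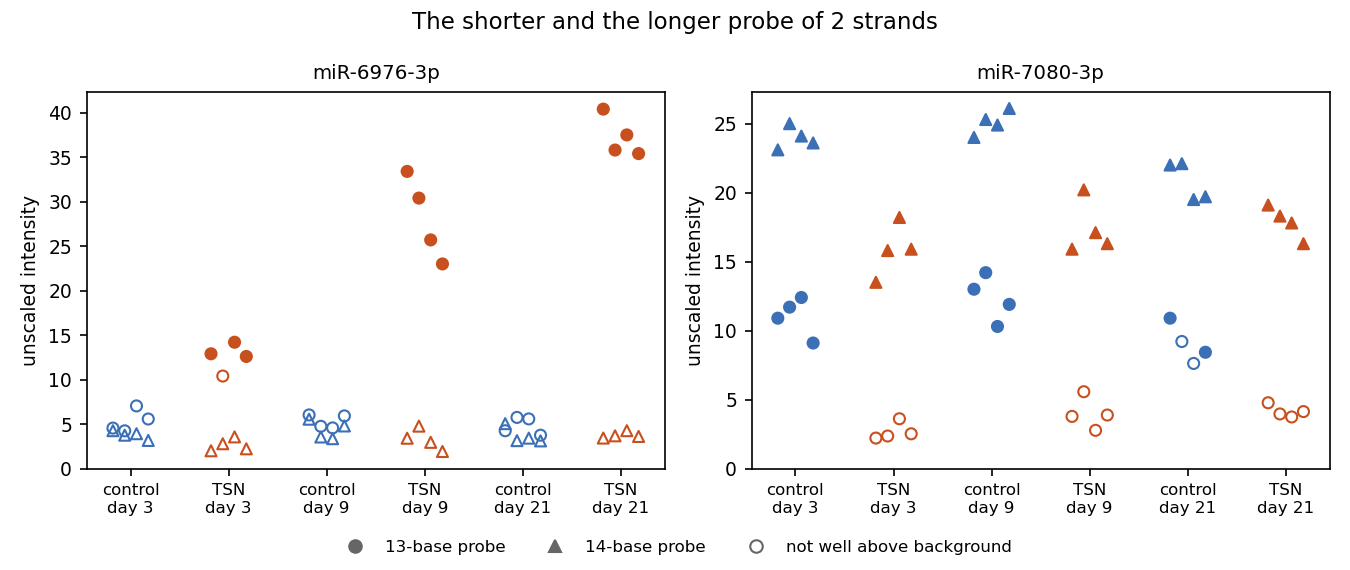
Unscaled intensity (y axis) of the 13-base (circles) and 14-base (triangles) probes on each array, by group (x axis), for miR-6976-3p and miR-7080-3p. Open symbols are not well above background; for miR-6976-3p only the 13-base probe rises under TSN, to 40.4, and for miR-7080-3p both probes are lower under TSN than in controls.

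Most probes above background held a run of G. A stretch of 4 or more G was found in 84 of the 405 probes of the set (20.7%), against 1.49% of the 402 probes of the 5p strands and 3.38% of the 3608 remaining probes. Of those 84 probes 16 (19.0%) were above background on at least 1 array, against 3 of the 321 without such a run (0.935%). Of the 16, 12 had a higher mean unscaled signal in controls than under TSN. Among the 3608 remaining probes, 11 of the 46 probes that held such a run and were above background had a higher mean in controls, against 7 of the 820 without a run. For the 5p strands the counts were 0 of 4 and 0 of 152. The 3 without a run were both probes of miR-7033-3p and the 13-base probe of miR-7080-3p. These counts describe probes that partly share a target, and no cause was tested.

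None of the 3p strands that could be fitted followed array brightness. A slope of log2 unscaled signal on log2 brightness was fitted across 12 arrays of an arm after centring each day, for strands above background on at least 9 of them. A slope of 1 means that the signal scales with brightness, and a strand is said to follow it above 0.5. In controls, whose brightness differed by 1.06 to 2.90 on the log2 scale within a day, the slope was -0.0317 (SE 0.0242) for miR-7080-3p, -0.041 (SE 0.0485) for miR-7022-3p and -0.156 (SE 0.0536) for miR-7085-3p. In the same arrays 32 of 32 5p strands of the range followed (median slope 1.06), as did 161 of 164 other miRNAs (median 0.995). Under TSN, where brightness differed by only 0.28 to 1.06 within a day, miR-6976-3p had a slope of 0.369 (SE 0.151) and miR-7080-3p of -0.067 (SE 0.159), and 61 of 71 5p strands followed. In a version added after the data were seen, the 9 strands detected on at least 1 array with a signal above 0 on all 24 had slopes of -0.156 to 0.128 in controls, and none passed 0.5 in either arm. Under TSN their slopes were -0.067 to 0.369 with SE of 0.151 to 0.252, so some are not clearly separated from 0.5. The 185 strands never above background and miR-7033-3p were not fitted.

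**Figure D4:**
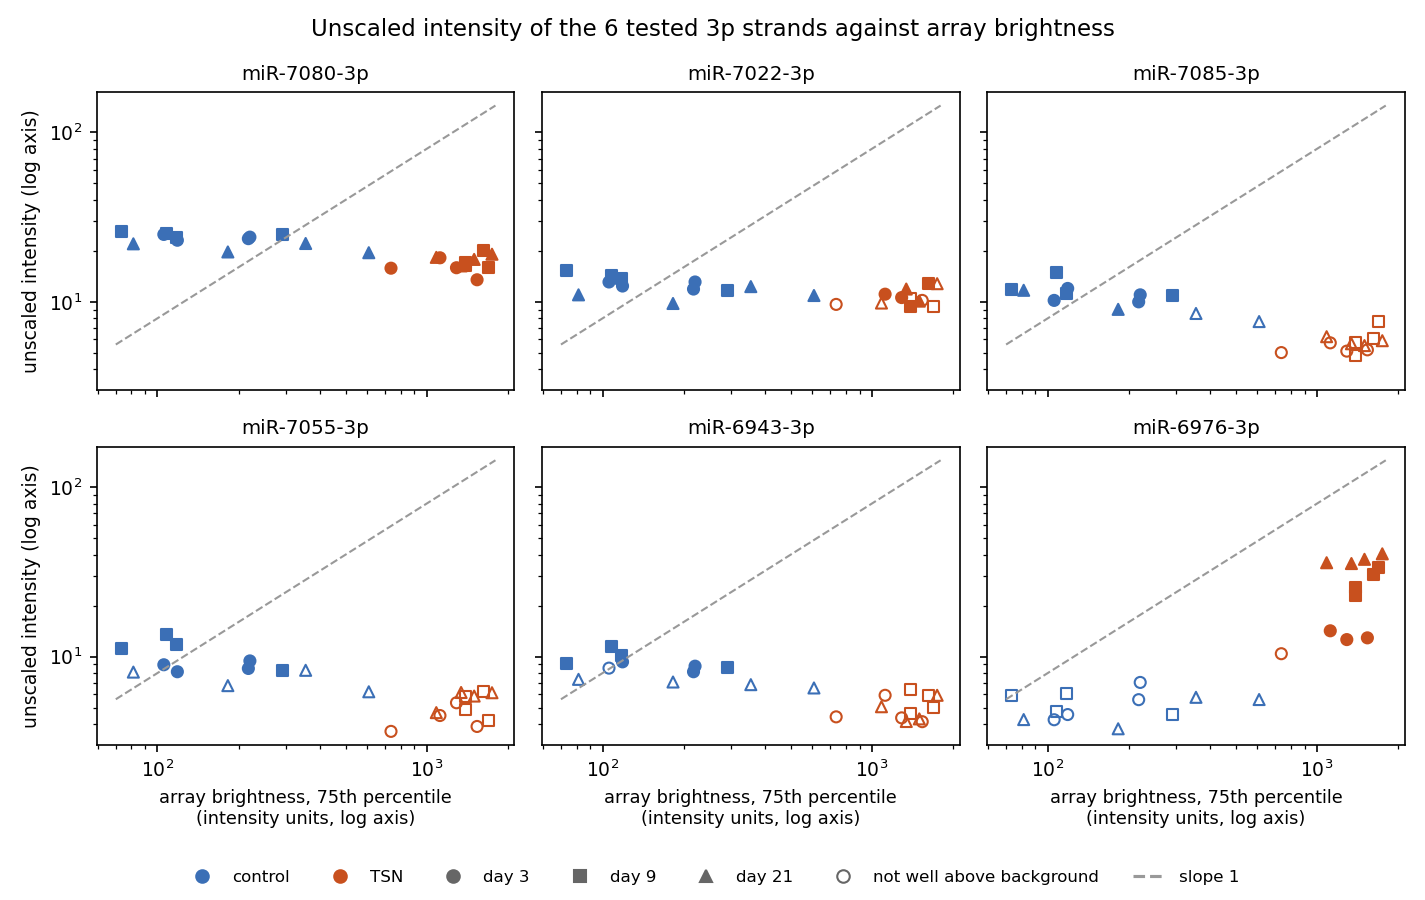
Unscaled intensity (y axis, log scale) against array brightness (x axis, 75th percentile, log scale) for the 6 strands tested; circles are day 3, squares day 9 and triangles day 21, blue is control, orange is TSN and open symbols are not well above background. The dashed line has slope 1; the signal of miR-7080-3p stays between 13.5 and 26.1 while brightness runs from 73.6 to 1750, and miR-6976-3p is higher on TSN arrays.

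The whole set was compared between arms on the unscaled linear scale, where no floor or filter is needed. All 4 TSN arrays lay above all 4 control arrays of the day for 11, 12 and 13 of the 195 strands at day 3, day 9 and day 21 (5.64%, 6.15% and 6.67%), against 33.6%, 33.9% and 34.5% of all 1881 miRNAs. They lay below for 15, 25 and 15 (7.69%, 12.8% and 7.69%), against 6.49%, 7.55% and 4.31%. The median difference of the 195 was -0.0855, -0.225 and -0.131 intensity units, against 0.286, 0.202 and 0.311 over all miRNAs. Of the 5p strands of the range, 52.6%, 52.0% and 53.1% lay above.

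The 185 strands never above background read between -2.39 and 9.01 intensity units. The highest readings were 9.01 in miR-6923-3p, 8.02 in miR-7067-3p and 7.85 in miR-7047-3p, which reach into the values of the detected strands. Within these 185, miR-6940-3p, miR-7028-3p and miR-7062-3p were higher without overlap under TSN at all 3 days and miR-6923-3p was lower at all 3. These 4 were named after their values were seen. Their differences ran from -3.45 to 4.91 intensity units. No share over all miRNAs is given for the 3 days together. At single days 33.6% to 34.5% of all 1881 miRNAs lay above without overlap and 4.31% to 7.55% below, so nothing is read from these 4.

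TSN and control were then compared on the scaled log2 scale, where the signals of an array were divided by their 75th percentile and values were held at a floor of 0.0135 (-6.21 on the log2 scale). Of the 195 strands 6 could be tested, those detected on every array of 1 or more groups, so these 6 do not stand for the set. miR-7022-3p, miR-7085-3p, miR-7055-3p and miR-6943-3p passed through a control group only, where they read higher, and miR-6976-3p through TSN groups only. A lower call was thus favoured in the first 4 by the filter, and nothing is read from the counts that follow. limma (Benjamini-Hochberg over 444 miRNAs, adjusted p under 0.05) called all 6 lower under TSN at day 3, where it called 18.2% of all tested miRNAs lower and 29.1% higher. It called all 6 lower at day 9, against 34.2% lower and 27.9% higher overall. At day 21 it called 5 lower, against 21.6% lower and 23.2% higher. The 73 tested 5p strands of the range split into 14 higher and 15 lower at day 3, 17 and 34 at day 9, and 18 and 10 at day 21.

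The number and direction of the calls depended on the scaling. Without scaling, with a floor set in the same way, the fit called 1 higher and 1 lower at day 3, 1 and 4 at day 9, and 1 and 0 at day 21, and with quantile normalization 1 and 3, 1 and 5, and 1 and 2. With labelling spike-in scaling it called 0 higher and 5 lower, 0 and 5, and 1 and 3. The strand called higher was miR-6976-3p wherever 1 was called. No share of all 444 called is given for these settings, so the counts are not read as particular to the set. The median change of all 444, which was 0.10, -0.04 and 0.01 with the main scaling, moved to 2.19, 2.41 and 2.06 without scaling and to 0.98, 1.18 and 0.66 with spike-in scaling.

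The scaled mean of miR-7080-3p fell from -2.71 to -5.97 at day 3, a change of -3.26 (SE 0.476, limma adjusted p = 1.05e-05). The changes at day 9 and day 21 were -3.85 (adjusted p = 1.15e-06) and -2.61 (adjusted p = 0.000174). All 4 TSN arrays of day 9 were at the floor, so the floor limits the size. Without scaling the change at day 3 was -0.60 (adjusted p = 9.81e-05), at day 9 -0.54 (adjusted p = 0.00028) and at day 21 -0.22 (adjusted p = 0.0857). With the total gene signal of the scanner software, which sums over the probes of a miRNA, the changes were -0.61 (adjusted p = 0.325), -1.29 (adjusted p = 0.0298) and 0.41 (adjusted p = 0.556), so the calls at day 3 and day 21 were lost.

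miR-7022-3p changed by -2.57, -2.98 and -1.77 (limma adjusted p = 0.000142, 2.32e-05 and 0.00481), with all 12 TSN arrays at the floor. Without scaling, the change was -0.38 at day 9 (adjusted p = 0.0125) and did not pass at day 3 (-0.28) or day 21 (0.01). For miR-7085-3p, miR-7055-3p and miR-6943-3p no TSN array was above background, so the fold is a lower bound on this scaling only. It is taken against the higher of the array's lowest signal above background and the strand's own value after flooring, which was the floor on nearly all of these arrays. This scaling divides by an array brightness that was 7.23-fold, 11.8-fold and 5.87-fold higher under TSN at day 3, day 9 and day 21. The filter favoured a lower call in these 3 strands and in miR-7022-3p, so their adjusted p is not read as support. A lower bound is given only where all 4 control arrays measured the strand. miR-7085-3p was at least 5.08-fold lower at day 3 (adjusted p = 0.000781) and 6.97-fold at day 9 (adjusted p = 0.000114). At day 21 it was called lower (adjusted p = 0.0216), but only 2 of 4 control arrays measured it. miR-7055-3p was at least 4.12-fold and 6.33-fold lower at day 3 and day 9 (adjusted p = 0.00139 and 9.29e-05). miR-6943-3p was at least 5.63-fold lower at day 9 (adjusted p = 0.000113). At day 3 it was called lower (adjusted p = 0.000969), but only 3 of 4 control arrays measured it. At day 21 miR-7055-3p and miR-6943-3p are called lower (adjusted p = 0.0375 and 0.0424) with neither arm above background, and no fold is given. Other scalings gave smaller changes. With spike-in scaling the log2 changes at day 3 and day 9 were -1.50 and -1.73 for miR-7085-3p, -1.20 and -1.59 for miR-7055-3p, and -1.19 and -1.42 for miR-6943-3p. Without scaling miR-7085-3p changed by -0.16 at day 3 (adjusted p = 0.196) and -0.33 at day 9 (adjusted p = 0.0124). miR-7055-3p changed by 0 (adjusted p = 1) and -0.25 (adjusted p = 0.034), and miR-6943-3p by 0 (adjusted p = 1) and -0.10 (adjusted p = 0.384). These unscaled fits held values at a floor, which limits the sizes. With no floor, the unscaled log2 differences at day 3 and day 9 were -1.04 and -1.02 for miR-7085-3p. They were -1.03 and -1.08 for miR-7055-3p, and -0.9 and -0.85 for miR-6943-3p. Quantile normalization also gave miR-7055-3p and miR-6943-3p a change of 0 at day 3. The calls of these strands at day 3 thus ended in those settings, apart from that of miR-7085-3p under quantile normalization (-1.96, adjusted p = 0.0013). Leaving out control day 21 replicate 1 or replicate 4 ended the day 21 calls of all 3 strands, with values of -0.90 and -1.41 for miR-7085-3p, -0.74 and -1.22 for miR-7055-3p, and -0.68 and -1.08 for miR-6943-3p. Leaving out any TSN day 21 array ended those of miR-7055-3p and miR-6943-3p, at -1.28 and -1.19 with adjusted p above 0.05.

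For miR-6976-3p the scaled comparison and the signal itself point in opposite directions. limma called it lower at day 3 (-1.29, SE 0.385, adjusted p = 0.00867) and day 9 (-1.16, SE 0.385, adjusted p = 0.0137) and did not call it at day 21 (0.27, adjusted p = 0.639). At day 3 and day 9 no control array measured it above background, while 3 and 4 TSN arrays did, so the control value is only an upper bound and no fold is given. Without scaling it was called higher at all 3 days (0.37, 1.53 and 1.95, with limma adjusted p = 0.00931, 1.11e-09 and 7e-11), and the floor under the control values limits these sizes. Without control day 9 replicate 4 the scaled day 9 change was -0.84 (adjusted p = 0.0647).

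Days within an arm were compared where they shared a slide. limma called 0 of the 6 strands in control day 9 against day 3 (overall 9.46% higher and 4.28% lower) and 0 in TSN day 21 against day 9 (30.6% and 12.8%). In control day 9 against day 3 the 6 changes were 0.29 to 0.62 with adjusted p of 0.532 to 0.752. In TSN day 21 against day 9, 4 strands were at the floor on all 8 arrays, and miR-6976-3p changed by 0.54 (adjusted p = 0.277) although its unscaled values of the 2 days did not overlap. The change of the TSN effect from day 3 to day 9 was called in 0 of the 6 (3.83% higher and 15.1% lower overall).

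Other mouse mirtrons, from a list chosen by name, also differed between their strands. miR-1224-5p and miR-3102-5p were above background on all 24 arrays, and miR-877-5p on 5 control and 12 TSN arrays. Their 3p strands, miR-1224-3p, miR-3102-3p and miR-877-3p, were on 0 arrays. miR-702-3p was above background on 9 control arrays and 0 TSN arrays, and miR-702-5p, miR-1981-5p and miR-1981-3p on none. limma called 0 of the 4 tested higher and 2 lower at day 3, 1 and 2 at day 9, and 2 and 2 at day 21, against 29.1% higher and 18.2% lower of all 444 at day 3, 27.9% and 34.2% at day 9, and 23.2% and 21.6% at day 21.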

How the data were processed

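Scanner output of 24 arrays was used. Per the file headers, the deposited intensity values come from Feature Extraction 10.7.1.1, which subtracted background from each spot with no scaling between arrays; the flags for spots above background are the software's own. Control spots and outlier spots (2.01% to 4.69% per array) were dropped before averaging the spots of each probe. Signals of an array were divided by the 75th percentile of 261 probes, a floor of 0.0135 set, and log2 taken. The probe with the highest mean over all arrays stood for a miRNA, and any of its probes could place it above background. The number of arrays limits the precision.

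One limma fit (limma 3.58.1, R 4.3.3, data.table package version 1.17.8) covered 6 groups and 444 miRNAs, two-sided, with Benjamini-Hochberg adjustment at 0.05 in each of 7 comparisons, and was tested on simulated data. Array counts were compared by exact permutation. Sequences were read with Python 3.11.15, pandas 2.3.3 and numpy 2.4.6 and plotted with matplotlib 3.10.9. The set and lists were chosen with earlier results of these data known. Strands named are those above background on all arrays, those called between arms without overlap, those with the extreme slopes, and miR-7080-3p and miR-7022-3p; others above background on at least 1 array were added after their values were seen.

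In a check of pairing, same-numbered samples, which share a slide column, correlated at 0.202 to 0.353 in TSN against control at day 9 in all 4 pairs. These values are not correlations of whole array profiles, which ran from 0.828 to 0.995 between arrays. In the other comparisons 0 to 2 of 4 pairs passed 0.1. The labels give replicate numbers only, so whether same-numbered samples are paired is not known. The authors' deposited values are taken as log2, since they rose with the log2 scanner values; their scaling and centring stay unknown. No pair of arrays was identical.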

Additional observations from a re-analysis of the deposited data

Results flagged for a closer look

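On the scaled scale, limma called a difference between days in the effect of TSN on miR-6976-3p. The change under TSN was 1.44 higher at day 21 than at day 9 (SE 0.545, limma adjusted p = 0.0476), where 23.0% of the 444 miRNAs were called higher and 11.7% lower. It was the only one of the 6 tested strands called, and the other 5 had differences of 1.21 to 1.38 with adjusted p of 0.119 to 0.176. Over 27 alternatives the difference ran from 0.12 to 1.90 with adjusted p of 0.00356 to 0.621, and the call was lost in 22. Without scaling the difference was 0.42 (adjusted p = 0.125). Leaving out 1 array ended the call in 14 of 16 cases, with values of 1.11 to 1.90 over the 16. The exceptions were control day 9 replicate 3 and control day 21 replicate 1, without which 4 and 6 strands were called. On the log2 scale the arms differed in array brightness by 3.56 at day 9 and 2.55 at day 21, and its part was not tested. Controls of day 9 lay on slide 1 and those of day 21 on slide 2, while TSN of both days lay on slide 4. Control slide and day therefore cannot be told apart here.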

How the results depend on the processing

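Of the recalculated values of the main comparisons, 190 kept their side of the threshold or stayed within 1.5 times of the main count, and the rest follow. No share over all miRNAs is given for these settings, so nothing about the set is read from the counts of strands called. At day 3, 1 was called higher without scaling and with quantile normalization, and 1 without scaling, 3 with quantile normalization, 11 with no filter (195 strands tested) and 1 with only miRNAs above background on all 24 arrays (1 strand tested) were called lower. At day 9, 1 was called higher without scaling and with quantile normalization, and 18 with no filter and 1 with the strict filter were called lower. At day 21, 1 was called higher with spike-in scaling, no scaling, quantile normalization and the 75th percentile over all probes, and 2 with quantile normalization, 3 with spike-in scaling, 0 without scaling, 2 with no filter and 1 with the strict filter were called lower, and 2 to 5 when 1 array was left out. Quantile normalization called 1 strand in control day 9 against day 3 and 2 in the change of the TSN effect from day 3 to day 9; no scaling called 1 in the latter and 1 in TSN day 21 against day 9. For the change of the effect from day 9 to day 21 the count of 1 became 0 under the 75th percentile over all probes, spike-in scaling and no scaling. It was also 0 with the authors' values, normexp background, the mean of probes, no filter and the strict filter, where miR-6976-3p was not tested. Quantile normalization called 1 strand, but miR-6976-3p lost its call there (0.12, limma adjusted p = 0.361). When 1 array was left out, 0 to 6 strands were called. The difference in strands above background per array was -0.75 at day 3 and at day 9 when all spots had to be above background, and -0.167 to 0.50 at day 21 when 1 array was left out. Single strands reversed as follows: miR-6976-3p at day 3 with quantile normalization (0.26) and no scaling (0.37), at day 9 with the 75th percentile of all probes (0.17), quantile normalization (0.79), spike-in scaling (0.43) and no scaling (1.53), and at day 21 with the authors' values (-0.08), normexp background (-1.69) and the mean of probes (-0.18); miR-7022-3p at day 21 without scaling (0.01); and miR-7080-3p at day 21 with the software's total gene signal (0.41). The cause was not tested. With the replicate number as a block, 6, 6 and 5 strands were called lower and 0 higher at day 3, day 9 and day 21, and this block changed no call. Slide as a block could not be fitted between the arms, since no slide holds both. Signal close to background limits all 10 strands: 5 of the 6 tested lay at the floor on at least 9 TSN arrays.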

Other observations

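In the authors' deposited table the 195 strands had values of 4.21 to 7.60 with a median of 4.35, against column medians of 4.37 to 4.4 over all entries, and 90.3% lay within 0.5 of the median. The highest value was that of miR-7080-3p in a control of day 9. Its authors' values were 6.20 to 7.36, 6.02 to 7.60 and 5.40 to 7.42 in the controls of day 3, day 9 and day 21, and 4.63 to 4.86, 4.71 to 4.85 and 4.69 to 4.81 under TSN. Those of miR-6976-3p in the authors' deposited table were 4.73 to 5.62 in controls and 4.65 to 5.04 under TSN. In 23 of 24 arrays the authors' column correlated best with its own scanner array, at r of 0.955 to 0.982 across miRNAs, which are not independent replicates.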
